A study of Mus musculus with 18 samples.

Results

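WT CD115- common dendritic progenitors (CDPs) were compared with WT common lymphoid progenitors (CLPs), using the 3 WT libraries of each population among the 18 RNA-seq libraries of the series. Both populations had been sorted from bone marrow of C57BL/6 mice aged 6 to 8 weeks that carried *Trim33* fl/fl without Cre. The study describes both these WT mice and the Cre-ERT2 mice of the KO libraries as treated with tamoxifen. The CD115- CDP gate was Lin- CD11c- FLT3+ with intermediate CD117, without CD115 and CD127 on the surface, and the CLP gate, as the series description gives it, required CD127, FLT3, CD117 and Sca-1 on Lin- CD11c- cells. Each library was described as a biological repeat, without saying how many animals went into it, so that p-values measure the spread between these libraries. Multipotent progenitors (MPPs; 3 WT libraries, rescaled in the same way) and the libraries labelled KO for TRIM33, a chromatin-bound transcriptional cofactor, were not part of the test and are given as values only where stated. Libraries were made from poly-A RNA and the values are FPKM, in which fragments are scaled to the transcript length and to the mapped total of the library.

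CDPs and CLPs are neighbouring progenitors of the bone marrow, and dendritic cells (DCs) can arise from both. CDPs descend from myeloid progenitors and are known as a source of conventional DCs and plasmacytoid DCs (pDCs), the latter in particular from the CD115- fraction. CLPs are the source of B cells, innate lymphoid cells and, in part, T cells and pDCs, and they start to express the recombination machinery and the early B lineage program. FLT3, the receptor for the DC growth factor FLT3 ligand, is on the surface of both.

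Genes were joined by their Entrez identifiers over the 18169 genes that the CDP table (19710 genes) and the CLP table (18378 genes) have in common. Because each population was deposited in a table of its own, libraries were brought to a common scale by the median of their ratios over 10288 genes above 1 FPKM in all 6 libraries, with factors between 0.904 and 1.06. The results are called rescaled FPKM here. A difference between the tables and a difference between the populations cannot be told apart. The depth, as estimated from the steps between low FPKM values, was 19.3 to 20.4 M mapped reads per library, and it limits the values of genes near 0. CD115- CDP library 3 stood apart from libraries 1 and 2: in it, 96 genes were above and 152 below both others by a log2 difference of at least 2, against 1 to 22 genes for each direction in any other library. Its Pearson correlation with libraries 1 and 2, across the log2 values of genes, which are not independent replicates, was 0.939 and 0.909, while libraries 1 and 2 had a correlation of 0.985 and the CLP libraries 0.976 to 0.991. For this reason results are given with and without CD115- CDP library 3. In these sorted bulk samples, fewer cells of a type and less RNA per cell cannot be told apart.

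Of the 12421 genes tested, those with a mean of at least 0.5 rescaled FPKM over the 6 libraries, 38 (0.306%) were called higher and 118 (0.95%) lower in CD115- CDPs than in CLPs. A call needed an adjusted p of at most 0.05 (limma, Benjamini-Hochberg) and a log2 fold change of 1 or more in either direction. Fold changes are differences of log2(rescaled FPKM + 1), and for weakly expressed genes they come out smaller than the ratio of the levels. None of the 156 called genes had overlapping values between the populations. Among all tested genes, 12.3% had all 3 CDP values above and 16.1% all 3 below the CLP values. The fold change was positive for 6344 of the tested genes and negative for 6077. With 3 against 3 libraries an exact permutation test of a single gene could not go below p = 0.10. Without CD115- CDP library 3, 661 genes (5.32%) were called higher and 355 (2.86%) lower, and these included 38 of the 38 and 116 of the 118. The calls also rested on the CLP libraries: without CLP library 2 no gene was called by limma, although 1449 had an unadjusted p under 0.05, and without CLP library 3 *Mir6924* alone was called. The fold change of each of the 156 genes kept its sign whichever library was left out. This follows from the lack of overlap and adds no support to the calls. Scaling each library to the same total over the shared genes moved the median of all genes from 0.01 to -0.18 on the log2 scale and gave 47 genes higher and 273 lower, so that 85.3% of calls were lower, against 75.6% with the median scaling.

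**Figure D1:**
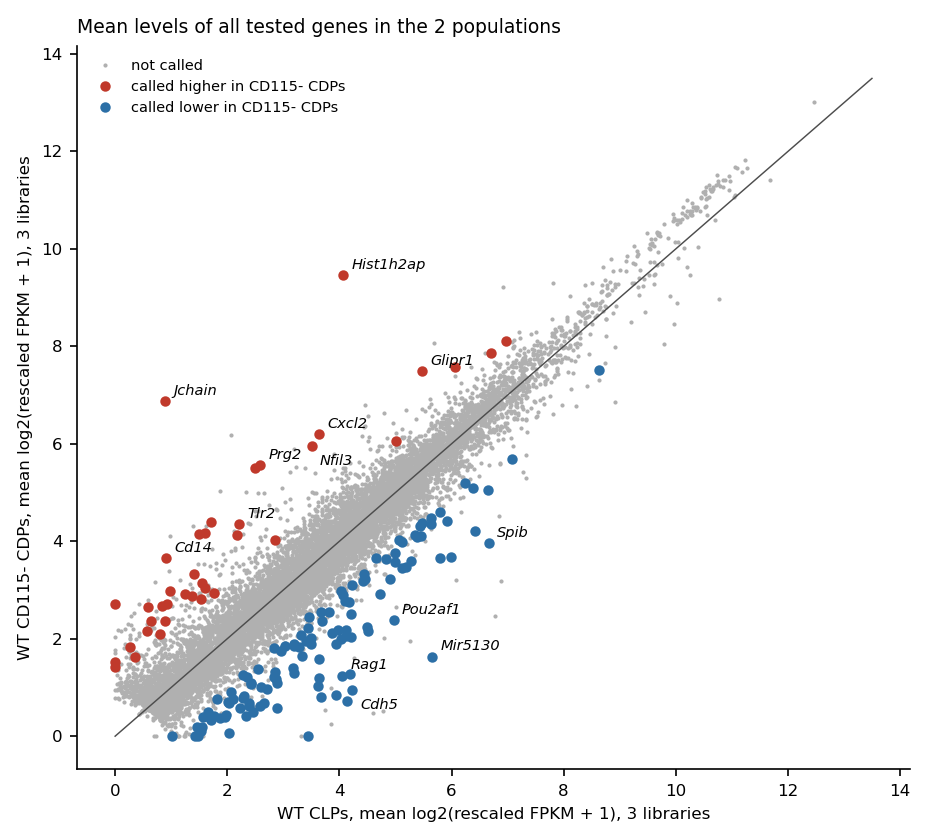
Mean log2(rescaled FPKM + 1) of each of the 12421 tested genes in WT CLPs (horizontal axis, 3 libraries) and WT CD115- CDPs (vertical axis, 3 libraries), with the line of equal values. The 38 genes called higher in CD115- CDPs are red and the 118 called lower are blue; *Jchain* and *Hist1h2ap* lie farthest above the line.

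The genes behind the sort gates came first, as a check of the labels. *Il7r*, which encodes the CD127 chain used to include CLPs and exclude CDPs, had 21.5, 15.4 and 5.2 rescaled FPKM in CD115- CDP libraries 1, 2 and 3, and 59.2, 31.4 and 33.5 in CLP libraries 1, 2 and 3. The values did not overlap, but the difference was not called (log2 fold change -1.63, SE 0.494, adjusted p = 0.153), whereas without CDP library 3 it was (-1.08, adjusted p = 0.0247). *Csf1r*, which encodes CD115, the receptor for M-CSF, had 59.5, 43.3 and 133 rescaled FPKM in CDPs sorted as CD115-, and 24.7, 23.4 and 14.3 in CLPs. Its transcript was thus present in every library of the population gated without the protein. The fold change of 1.74 was not called with all libraries (adjusted p = 0.107), whereas without CDP library 3 it was (1.29, adjusted p = 0.00868).

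*Flt3* ranged from 143 to 257 rescaled FPKM in CDPs and from 267 to 291 in CLPs. *Kit*, which encodes CD117, ranged from 8.43 to 18.9 and from 11.3 to 13, and neither was called with or without CDP library 3. *Itgax*, which encodes the integrin CD11c that both gates excluded, had 24.3, 17.4 and 20.3 rescaled FPKM in CDPs and 57.3, 67.1 and 54.1 in CLPs. It was lower in CDPs (log2 fold change -1.49, SE 0.164, adjusted p = 0.0145), the only call among the 13 gate genes tested. Of the lineage genes stained for exclusion, *Cd3e* and *Ly6g*, of T cells and neutrophils, reached at most 2.21 and 9.66 rescaled FPKM, both in CDP library 3.

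V(D)J recombination joins the segments of antigen receptor genes, and the surrogate light chain with the CD79 signalling pair forms the first receptor of a B cell precursor. All 12 listed genes of this machinery were tested, 12 of 12 had a negative log2 fold change and 10 had no overlap between the populations. *Rag1* and *Rag2*, the 2 subunits of the recombinase that cuts the DNA, were the 2 genes called lower. *Rag1* (chr2:101638252-101649532) had 1.7, 2.6 and 0.36 rescaled FPKM in CDPs and 16, 14.7 and 16 in CLPs. Every CLP library lay far above every CDP library, with a log2 fold change of -2.81 (SE 0.346, adjusted p = 0.0202). *Rag2*, its neighbour at chr2:101624712-101632528, had 1.14, 1.05 and 0.847 rescaled FPKM against 4.52, 5.22 and 5.41 (log2 fold change -1.59, SE 0.147, adjusted p = 0.00857).

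*Dntt*, the terminal transferase that adds bases at the joints, was the most abundant of these genes and was present in both populations, at 560, 536 and 144 rescaled FPKM in CDPs and 929, 975 and 1121 in CLPs. CDP libraries 1 and 2 were close to each other and library 3 was far lower, and the difference of -1.51 was not called (adjusted p = 0.175). *Igll1* and *Vpreb1*, the chains of the surrogate light chain, had the most negative fold changes of the list, -4.31 and -3.70. *Igll1* had 6.24, 12.6 and 0.701 rescaled FPKM in CDPs and 53.7, 121 and 196 in CLPs, without overlap, and its adjusted p of 0.0593 missed the threshold. Without CDP library 3, 7 of the 12 were called lower, among them *Igll1* (-3.46, adjusted p = 0.00289) and *Vpreb1* (-2.66, adjusted p = 0.0101). The median over the 12 was -1.96 with all libraries and -1.47 without CDP library 3, beside 0.01 and -0.01 over all tested genes. Summed, the list reached 786, 823 and 256 rescaled FPKM in CDPs and 1421, 1768 and 2164 in CLPs.

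Of 23 transcription factors that specify lymphoid cells, listed and tested, 4 were called lower and none higher, with a median of -0.39 (-0.14 without CDP library 3). The fold change was negative for 16 of the 23, and 10 lay below and 1 above CLPs without overlap. Without CDP library 3, 6 were called lower and 2 higher, *Ikzf3* (1.23, adjusted p = 0.00995) and *Irf4* (1.21, adjusted p = 0.0272). *Spib*, an ETS family factor that acts in B cells and pDCs, had 19.8, 13.1 and 11.7 rescaled FPKM in CDPs and 113, 95.4 and 94.6 in CLPs (log2 fold change -2.71, SE 0.206, adjusted p = 0.00857). WT MPPs had 1.37 ± 0.305 rescaled FPKM (SD, n = 3), so that CDPs lay between MPPs and CLPs. *Spi1*, which encodes PU.1, an ETS factor of the same subfamily that drives myeloid and early lymphoid genes, went the other way. It had 145, 195 and 239 rescaled FPKM in CDPs and 65.3, 73.5 and 59.3 in CLPs, and was higher in CDPs (1.51, SE 0.202, adjusted p = 0.0283).

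*Pou2af1*, a B cell coactivator of octamer-binding factors, had 3.18, 4.53 and 5.18 rescaled FPKM in CDPs and 16.3, 35.6 and 47.5 in CLPs (-2.58, adjusted p = 0.0356). *Lef1*, an effector of WNT signalling expressed in pro-B cells, had 1.58, 2.74 and 0.253 against 8.96, 12 and 13.7 (-2.43, adjusted p = 0.0416). *Ets1*, needed in lymphocyte development, had 11.2, 13.4 and 6.36 against 36.1, 29.4 and 36 (-1.67, adjusted p = 0.0377). Each was lower in all 3 CDP libraries than in any CLP library. The B lineage factors *Pax5* and *Ebf1* had fold changes of -2.65 and -1.80 and were not called (adjusted p = 0.0937 and 0.226). *Pax5* was called without CDP library 3 (-1.93, adjusted p = 0.00178), a library in which it stood at 0.127 rescaled FPKM. *Tcf3*, which encodes the E proteins E12 and E47, had 82.1, 73.3 and 76 rescaled FPKM against 114, 129 and 141, a log2 difference of -0.72 under the fold threshold (adjusted p = 0.0526).

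The start regions of *Rag1* and *Spib* are shown because these are the best known recombination gene and lymphoid factor among the calls, and because E proteins bind the letters CANNTG, the E-box. Both sequences are from RefSeq on GRCm38.p6, on the minus strand. The *Rag1* stretch, chr2:101649483-101649782, runs from 250 bases before to 50 after the gene start. The *Spib* stretch, chr7:44532022-44532321, has the same length. The annotated start of *Spib*, 44532087, lies somewhat upstream of that 250 to 50 split. Capitals mark CANNTG, which reads the same on both strands, and no match overlaps another.
Rag1: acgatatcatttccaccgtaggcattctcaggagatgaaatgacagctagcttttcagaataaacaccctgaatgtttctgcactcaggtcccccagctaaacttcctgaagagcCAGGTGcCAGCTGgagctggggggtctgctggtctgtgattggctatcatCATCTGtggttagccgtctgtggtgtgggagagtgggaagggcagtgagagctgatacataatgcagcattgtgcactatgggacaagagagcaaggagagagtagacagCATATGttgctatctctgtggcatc
Spib: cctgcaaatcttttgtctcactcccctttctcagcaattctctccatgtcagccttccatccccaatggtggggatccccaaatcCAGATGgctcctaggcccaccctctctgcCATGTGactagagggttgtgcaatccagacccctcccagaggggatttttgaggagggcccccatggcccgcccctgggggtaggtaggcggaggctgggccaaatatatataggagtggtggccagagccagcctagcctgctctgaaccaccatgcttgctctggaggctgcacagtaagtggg
*Rag1* has 4 matches and *Spib* 2. The letters are common: 72.1% of 27025 start regions of this length have a match, as do 17 of 23 called higher (73.9%) and 54 of 78 called lower (69.2%) with a sequence in the table. A match is not a site.

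Of the 11 early lymphoid surface genes listed and tested, 10 had a negative fold change, 7 of them without overlap. *Ly6d*, which marks CLPs bound for the B lineage, had 416, 385 and 115 rescaled FPKM in CDPs and 681, 879 and 1153 in CLPs (log2 fold change -1.74, adjusted p = 0.144; -1.14 and 0.00979 without CDP library 3). *Bst1*, an ectoenzyme of early B cells and stroma, was the only call among the 11, at 1.04, 1.23 and 1.72 against 4.09, 6.5 and 8.5 (-1.62, adjusted p = 0.0391). The median over the list was -0.69, and -0.35 without CDP library 3.

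pDCs are the type I interferon producing DCs, and both populations compared can give rise to them. All 21 listed pDC genes were tested: 6 were called lower in CDPs, none higher, and 16 lay below CLPs without overlap. The median was -1.19 (-1.01 without CDP library 3, where 11 were called lower). The 6 were *Spib*, already given, *Pacsin1*, *Lag3*, *Klk1*, *Cadm1* and *Cd300c*. *Pacsin1*, an endocytic adaptor found in pDCs, had 5.74, 3.88 and 2.28 rescaled FPKM in CDPs and 27, 20.8 and 17.5 in CLPs (-2.24, adjusted p = 0.026). *Lag3*, a coreceptor that binds MHC class II, had 4.93, 5.27 and 3.99 against 18.3, 18.3 and 16 (-1.70, adjusted p = 0.00857). *Cd300c*, an activating surface receptor, had 18.8, 12.3 and 19.4 against 35.6, 43 and 41.1 (-1.22, adjusted p = 0.0411). *Klk1*, a kallikrein protease, and *Cadm1*, an adhesion molecule, were low in both populations, with at most 1.04 and 0.146 in CDPs and at most 4.46 and 2.03 in CLPs. In each of these genes all CLP libraries were above all CDP libraries.

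*Tcf4*, which encodes E2-2, the factor that keeps the pDC fate, had 35.2, 33.2 and 20.6 rescaled FPKM in CDPs and 70.1, 44.4 and 45.4 in CLPs, a difference of -0.83 that was not called (adjusted p = 0.163). *Siglech*, a pDC surface lectin, had 83.9, 62.8 and 29.6 against 203, 139 and 144 (-1.55, adjusted p = 0.107; -1.13 and 0.00719 without CDP library 3). *Bst2*, the target of the pDC antibody PDCA-1, had 287, 230 and 247 against 451, 510 and 489. Its adjusted p was 0.0336, with a log2 fold change of -0.93 under the fold threshold. The MPP means were 1.76 rescaled FPKM for *Siglech*, 0.14 for *Klk1* and 0.824 for *Cd300c*, so that the mean of CDPs lay between MPPs and CLPs for these genes. For *Lag3* the MPP mean was 13.8, above CDPs.

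*Irf8*, the interferon regulatory factor required for DC fates, had 498, 261 and 809 rescaled FPKM in CDPs and 1031, 1091 and 980 in CLPs. The CDP values spread over a wide range while the CLP values lay close together, and no CDP library reached a CLP library (log2 fold change -1.13, SE 0.379, adjusted p = 0.176). Without CDP library 3, the highest of the CDPs, it was called lower (-1.52, adjusted p = 0.00574). Both populations were far above MPPs, which had 73.4 ± 3.06 rescaled FPKM (SD, n = 3).

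Genes of conventional DCs did not share a direction. Of 20 listed, 14 were tested, with a median of 0.07, 3 above and 4 below CLPs without overlap. *Mycl*, a MYC family factor of DCs, was called lower, at 12.9, 10.8 and 13.9 rescaled FPKM in CDPs and 31.6, 31.1 and 29.8 in CLPs (-1.24, adjusted p = 0.0147). *Id2*, an inhibitor of E proteins that favours conventional DCs and innate lymphoid cells, had 37.2, 69.9 and 30.4 against 12.5, 14.3 and 15.4. This difference of 1.55 missed the threshold with all libraries (adjusted p = 0.0638) and was called without CDP library 3 (1.79, adjusted p = 0.00265). *Zbtb46* and *Batf3*, factors of the conventional DC lineage, were low in both: at most 5.58 and 5.87 rescaled FPKM in CDPs, and at most 0.279 and 0.289 in CLPs. Their fold changes of 1.52 and 1.38 were not called with all libraries (adjusted p = 0.108 and 0.179). Without CDP library 3, *Zbtb46* was called higher and *Batf3* was not. In that setting 4 genes of the list were called higher and 4 lower.

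None of the 11 genes of MHC class II presentation was called by limma, and the median was 0.50 (0.26 without CDP library 3). *Cd74*, the invariant chain that accompanies class II molecules, had 127, 148 and 252 rescaled FPKM in CDPs and 56.4, 68.4 and 73.2 in CLPs (1.34, adjusted p = 0.0669; 1.05 and 0.0036 without CDP library 3). *H2-Ab1*, a class II chain, had 53.1, 83.4 and 75.4 against 26.8, 35 and 41.4 (1.01, adjusted p = 0.0937).

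**Figure D2:**
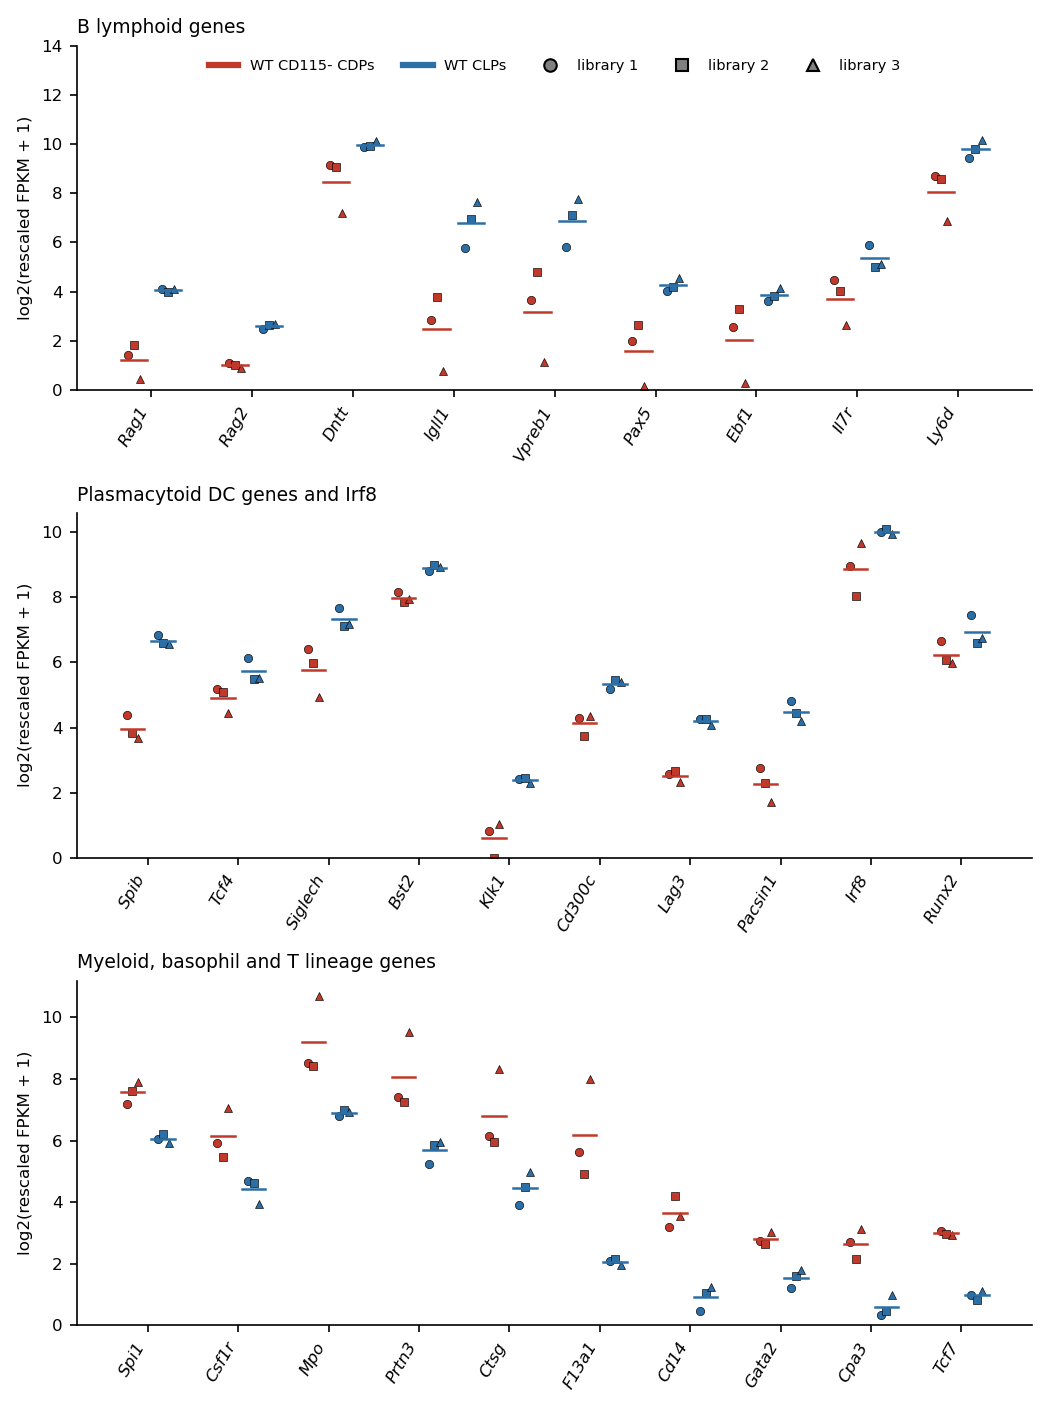
Log2(rescaled FPKM + 1) of B lymphoid genes (top), pDC genes and *Irf8* (middle) and myeloid, basophil and T lineage genes (bottom) in each library of WT CD115- CDPs (red) and WT CLPs (blue). Symbols are libraries 1 to 3 and bars are means over 3 libraries; CDP library 3 is the lowest CDP value for *Dntt*, *Igll1* and *Pax5* and the highest for *Mpo*, *Prtn3*, *Ctsg* and *F13a1*.

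Myeloid genes differed in how far they depended on CDP library 3. Among 14 myeloid transcription factors *Spi1*, above, was the only call, and the median was 0.06. *Cebpa*, required for granulocyte and monocyte progenitors, had 32.6, 27.9 and 75.8 rescaled FPKM in CDPs and 21, 33 and 26 in CLPs, with overlap (0.63, adjusted p = 0.371). Granule proteins of neutrophil and monocyte precursors gave no call among 18 tested. *Mpo*, the peroxidase of primary granules, had 368, 344 and 1641 rescaled FPKM in CDPs and 110, 126 and 122 in CLPs. *Prtn3* and *Ctsg*, serine proteases of the same granules, had 170, 150 and 739 against 37, 56.9 and 60.9, and 69.6, 60.4 and 322 against 13.9, 21.6 and 30.8. All 3 genes were above CLPs in every CDP library, with fold changes of 2.30, 2.38 and 2.34 that were not called (adjusted p = 0.114, 0.116 and 0.136). Without CDP library 3 they were called, at 1.57, 1.64 and 1.58.

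*S100a8*, a calcium-binding protein of neutrophils, had 28.3, 69.2 and 500 rescaled FPKM in CDPs and 69.5, 202 and 45.6 in CLPs, overlapping widely (adjusted p = 0.925). The list of 18 summed to 781, 918 and 4684 rescaled FPKM in CDPs and 510, 1108 and 480 in CLPs, and its median was 0.15 with all libraries and -0.65 without CDP library 3. Of 20 monocyte and macrophage genes, *Cd14*, the coreceptor for lipopolysaccharide, was the only call, at 8.19, 17.5 and 10.6 against 0.385, 1.05 and 1.34 (2.74, SE 0.315, adjusted p = 0.0164). *F13a1*, the clotting factor chain made by monocyte progenitors, had 47.9, 29 and 255 against 3.28, 3.4 and 2.89. Its fold change of 4.11 missed the threshold (adjusted p = 0.0514) and was called without CDP library 3 (3.19, adjusted p = 0.000312). The median of the monocyte list was 0.65 with all libraries and -0.09 without CDP library 3. Without CDP library 3, 3 of its genes were called higher and 3 lower, *Cybb*, *Mpeg1* and *Sirpa*. The 3 encode a subunit of the phagocyte oxidase, a pore-forming protein and a phagocyte receptor.

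Basophil and mast cell genes had the highest median of all lists, 1.32 (1.11 without CDP library 3). Of 12 listed, 10 were in both tables and 8 were tested, all 8 with a positive fold change and 7 without overlap. *Gata2*, a factor of stem cells, basophils and mast cells, had 5.66, 5.28 and 7.2 rescaled FPKM in CDPs and 1.33, 2.02 and 2.44 in CLPs (1.27, adjusted p = 0.0391). *Cpa3*, a granule carboxypeptidase, had 5.44, 3.39 and 7.62 against 0.244, 0.385 and 0.968 (2.06, adjusted p = 0.0336). Both were higher in CDPs. *Mcpt8* and *Prss34*, granule proteases of basophils, had 37, 18.4 and 45.4 against 0.977, 5.86 and 8.56, and 72.4, 30.4 and 90.9 against 1.71, 15.5 and 16. Neither was called with all libraries (2.68 and 2.71, adjusted p = 0.095 and 0.143). Without CDP library 3, *Mcpt8* was called (2.42, adjusted p = 0.023) and *Prss34* was not (2.39, adjusted p = 0.0508). *Prg2*, the major basic protein of eosinophil granules and not on this list, was called, at 37.9, 62.5 and 41.2 against 3.32, 3.02 and 11.5 (2.97, SE 0.453, adjusted p = 0.037). In MPPs these genes were at least as high as in CDPs: the means were 31.3 rescaled FPKM for *Gata2*, 11.9 for *Cpa3*, 62.4 for *Mcpt8* and 79.5 for *Prg2*. The 10 basophil and mast cell genes in both tables summed to 131, 66 and 166 rescaled FPKM in CDPs and 6.78, 28.5 and 32.8 in CLPs, and the part of basophil progenitors within the CDP gate was not tested.

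Genes of T cell and innate lymphoid priming did not move together. Of 25 listed, 22 were tested, 2 were called higher and 1 lower, and the median was 0.17. *Tcf7*, which encodes TCF-1, a factor of early T cells and innate lymphoid precursors, had 7.36, 6.77 and 6.58 rescaled FPKM in CDPs and 0.959, 0.771 and 1.18 in CLPs (2.01, SE 0.15, adjusted p = 0.00857). The values lay close together within each population. *Nfil3*, a basic leucine zipper factor needed for innate lymphoid cells and conventional DCs, had 61.4, 101 and 36.6 against 12.2, 9.73 and 9.31 (2.45, SE 0.348, adjusted p = 0.0326). *Cd7*, a surface protein of T, NK and pDC lineages, was lower in CDPs at 58.9, 44 and 49.5 against 108, 165 and 136 (-1.40, adjusted p = 0.0302). *Gata3* and *Rora*, further factors of innate lymphoid cells, had 3.54, 5.34 and 1.11 against 0.761, 0.434 and 0.721, and 4.63, 8.43 and 0.428 against 0.263, 0.183 and 0.148. Both were called without CDP library 3 (1.72 and 2.61), and not with it (1.27 and 1.82, adjusted p = 0.155 and 0.186).

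Receptors gave few calls. Among 31 cytokine receptor genes, *Il2rb*, the shared beta chain of the interleukin 2 and interleukin 15 receptors, was higher at 7.22, 9.57 and 10.8 rescaled FPKM against 1.71, 1.57 and 1.65 (1.93, SE 0.177, adjusted p = 0.00857). *Csf2rb2*, the beta chain of the interleukin 3 receptor, was lower at 15.2, 17.4 and 15.9 against 49.2, 42.1 and 38.4 (-1.36, adjusted p = 0.0119). *Csf2rb2* and *Csf2rb* are close copies, and reads could be divided between them, so the value for each is uncertain. The median of the list was 0.32. None of 22 chemokine receptor and integrin genes was called by limma (median 0.31), with 2 above and 2 below CLPs without overlap. Of 14 genes of Toll-like receptors and their adaptors, 7 were tested. *Tlr2*, which recognises bacterial lipoproteins, was higher at 20.9, 27.1 and 13.1 against 3.38, 4.05 and 3.54 (2.14, SE 0.26, adjusted p = 0.0196). *Tlr9* and *Tlr7*, the nucleic acid sensors of pDCs, had fold changes of -0.60 and -0.70 and were not called (adjusted p = 0.124 and 0.356).

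Of 29 cell cycle genes tested, 22 had a negative and 7 a positive fold change, beside 6077 negative and 6344 positive among all 12421 tested genes. *Ccnd3*, a D-type cyclin of lymphoid progenitors, was the only call among them, at 184, 157 and 205 rescaled FPKM in CDPs and 333, 436 and 432 in CLPs (-1.13, adjusted p = 0.0352). The median was -0.19, and *Mki67*, a proliferation marker, had 70.2, 55.5 and 72.1 against 87, 70.2 and 86.6. Without CDP library 3, 6 were called lower and 1 higher, the inhibitor *Cdkn1a* (1.93, adjusted p = 0.000312). *Cdkn1a*, which encodes p21, had 217 and 250 rescaled FPKM in CDP libraries 1 and 2, 33.8 in library 3, and 62.2, 55.6 and 63.3 in CLPs. Among 18 regulators of stem and multipotent progenitor cells tested of 23 listed, *Gata2* was higher and *Mycn* lower (-1.24, adjusted p = 0.0324), and the median was 0.07.

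None of 18 immediate early genes, 15 genes of the BCL2 family or 9 heat shock chaperones was called by limma with all libraries. The medians were -0.39, 0.36 and 0.05. The immediate early genes summed to 8005, 5573 and 6177 rescaled FPKM in CDPs and to 5276, 9657 and 11274 in CLPs, with CLP library 1 below every CDP library and CLP libraries 2 and 3 above them. Without CDP library 3, 3 of the 18 immediate early genes were called higher, *Atf3*, *Egr3* and *Nr4a1*. In the same setting 5 were called lower, *Dusp1*, *Dusp2*, *Egr1*, *Fos* and *Klf2*. Of the chaperones, *Bag3* was called higher. Among the 15 BCL2 family genes, 6 were called higher without CDP library 3. They included *Bcl2l11*, which encodes the death-promoting protein BIM, and *Mcl1*, a survival factor. *Bcl2l11* had 62.1, 103 and 8 rescaled FPKM in CDPs and 18.5, 15.9 and 12.3 in CLPs (1.25, adjusted p = 0.418; 2.31 and 0.000979 without library 3). *Trim33* itself, intact in these mice, had 14.9, 16.9 and 8.05 against 11.6, 6.75 and 8.75, with overlap (0.48, adjusted p = 0.394), and none of the 7 tested genes of TIF1 proteins and SMADs was called by limma. With libraries scaled to the same total, the small positive medians of the granule, myeloid factor, conventional DC, stem cell, chaperone, TIF1 and gate lists turned negative, and those of the other lists kept their sign.

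**Figure D3:**
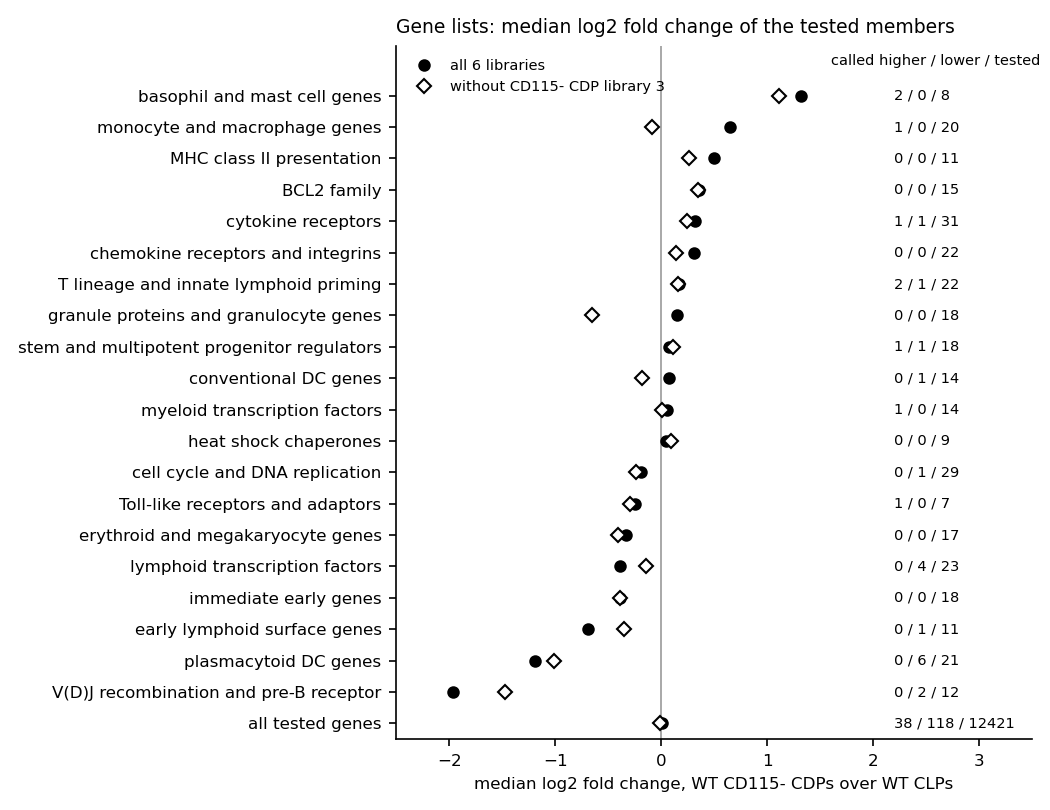
Median log2 fold change of the tested members of 20 gene lists and of all tested genes (bottom), with all 6 libraries (filled circles) and without CD115- CDP library 3 (open diamonds); the numbers at the right are genes called higher, called lower and tested. The median of the V(D)J list is -1.96 and that of the basophil and mast cell list 1.32, and the granule protein list moves from 0.15 to -0.65 when CDP library 3 is left out.

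Markers of other cells were at different levels in single libraries. *Col1a1*, the main collagen of bone-forming cells, had 0.0418, 0.0885 and 1.6 rescaled FPKM in CDPs and 0.113, 120 and 155 in CLPs, and *Col1a2* and *Bglap* had the same split. CLP libraries 2 and 3 therefore held transcripts of these genes that CLP library 1 nearly lacked. *Pdgfrb*, of the same stromal list, had no such split, at 10.3, 9.68 and 8.28 rescaled FPKM in CLPs. Of 9 stromal and endothelial genes, 6 were tested, and their summed level was 11 to 13.1 rescaled FPKM in CDPs, 27.9 in CLP library 1, and 299 and 372 in CLP libraries 2 and 3. *Cdh5*, the cadherin of endothelium and of some early progenitors, was the only call of that list, at 1.5, 0.542 and 0.857 against 14.9, 18.8 and 19.9 (-3.28, SE 0.222, adjusted p = 0.00842). The gap between CLP library 1 and the others was far smaller than for collagen. The endothelial genes *Kdr* and *Tek* were at most 0.164 rescaled FPKM in any of the 6 libraries. *Emcn*, a further endothelial gene, ranged from 1.18 to 1.48 in CDPs and from 1.34 to 1.54 in CLPs.

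Of 8 genes of mature B and plasma cells, 5 were tested, and their sum was 105, 108 and 525 rescaled FPKM in CDPs and 124 to 145 in CLPs. *Ms4a1*, which encodes CD20 of mature B cells, was at most 0.458. Of 11 genes of mature T and NK cells, 8 were tested, with sums of 46.9 to 62.8 in CDPs and 54.5 to 66.1 in CLPs, and *Cd4* was lower in CDPs (-1.53, adjusted p = 0.0373). Of 27 erythroid and megakaryocyte genes, 17 were tested and none was called by limma (median -0.33), with sums of 46.5 to 131 and 90.2 to 105. *Ddx3y*, on the Y chromosome, had 0.574, 18.6 and 0 rescaled FPKM in CDPs and 0.0282, 5.33 and 7.29 in CLPs, and *Xist* was above 20 in all 6, so that the Y-linked transcript was at differing levels within each population. The part of these markers in the other results was not tested.

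The call with the largest fold change was *Jchain*, which encodes the joining chain of polymeric antibodies and is also expressed in pDC precursors. It had 55.7, 58.2 and 487 rescaled FPKM in CDPs and 0.489, 0.781 and 1.43 in CLPs (log2 fold change 5.98, SE 0.81, adjusted p = 0.0286; 4.96 without CDP library 3). In CDP library 3 it makes up 487 of the 525 rescaled FPKM of the mature B and plasma cell sum given above. *Hist1h2ap*, a histone H2A gene, had 643, 573 and 936 against 7.17, 22 and 24.1 (5.39, SE 0.443, adjusted p = 0.00857), and *Hist1h2ao* 45.5, 31.2 and 61 against 1.97, 5.43 and 8.34 (3.01). Both have near-identical copies and most histone transcripts lack a poly-A tail, so these values are uncertain. *Cxcl2*, a chemokine for neutrophils, had 96.1, 56.4 and 69.7 against 8.37, 13.8 and 13 (2.55, SE 0.257, adjusted p = 0.0108). *Glipr1*, a secreted protein of the CAP family, had 155, 203 and 182 against 42.8, 43.3 and 44.2 (2.02, SE 0.135, adjusted p = 0.00842).

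*Tnfaip2*, induced by tumour necrosis factor in myeloid cells, had 15.7, 26.2 and 19.7 rescaled FPKM against 2.71, 1.99 and 2.21 (2.68, adjusted p = 0.00857). The inhibitory receptor genes *Lilrb4a* and *Lilr4b* were also called (2.64 and 2.57), and as adjacent, similar copies their values are uncertain. The next genes called higher were chosen here after their values were seen. *Il1b*, a proinflammatory cytokine, had 2.8, 2.77 and 2.21 against 0.0376, 0.376 and 0.227 (1.57, adjusted p = 0.0131). *Clec4e*, which encodes the lectin Mincle, and *Nlrc4*, an inflammasome sensor, had fold changes of 1.27 and 1.29. *Tnfsf9*, the ligand of 4-1BB, and *Hcar2*, a niacin receptor, had 1.96 and 1.85.

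**Figure D4:**
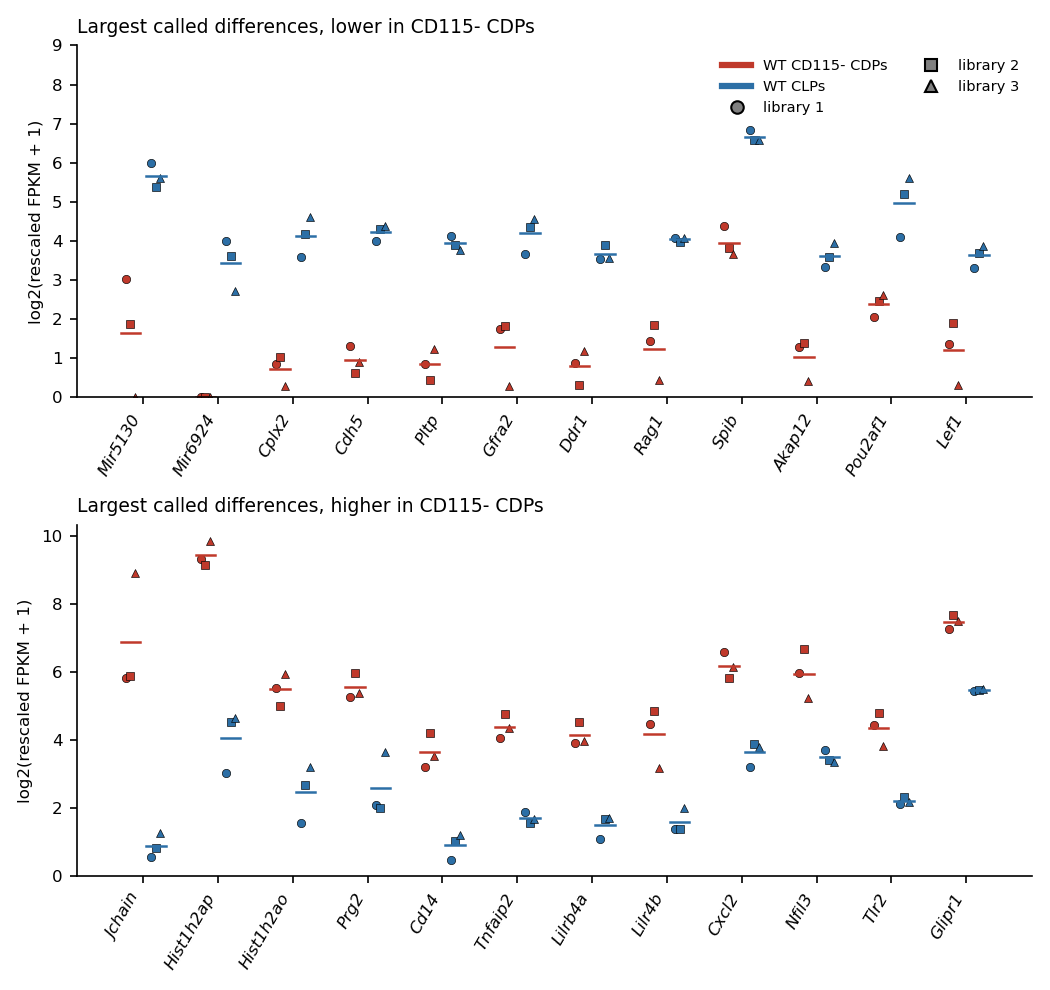
Log2(rescaled FPKM + 1) in each library for the 12 called genes with the most negative (top) and the 12 with the most positive (bottom) log2 fold change among those with a mean of at least 5 rescaled FPKM, in WT CD115- CDPs (red) and WT CLPs (blue). Symbols are libraries 1 to 3 and bars are means over 3 libraries; *Mir6924* is at 0 in all CDP libraries, and no gene shown has overlapping values.

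On the lower side, *Cplx2*, a regulator of vesicle release, had 0.804, 1.04 and 0.214 rescaled FPKM in CDPs and 11.1, 17 and 23.5 in CLPs (-3.41, SE 0.313, adjusted p = 0.00857). *Pltp*, a phospholipid transfer protein, had 0.814, 0.354 and 1.35 against 16.6, 13.9 and 12.7 (-3.10), and *Ddr1*, a collagen receptor kinase, had 0.835, 0.254 and 1.28 against 10.7, 13.8 and 10.9 (-2.87). *Gfra2*, a receptor for a glial cell line-derived factor, and *Akap12*, a scaffold for protein kinases, followed with -2.91 and -2.60. *Atp1b1*, a subunit of the sodium pump that was chosen after its values were seen, had 19.6, 16.8 and 16.7 against 90.8, 77.5 and 86.2 (-2.20, SE 0.13, adjusted p = 0.00842). Chosen in the same way, *Cd38*, an ectoenzyme, *Slamf6*, a lymphocyte receptor, and *Hes5*, a NOTCH target, were called at -1.36, -1.47 and -1.32.

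Small RNA genes made up 5 of the 38 genes called higher and 6 of the 118 called lower. *Mir6924* was listed at 0 in all CDP libraries and at 14.9, 11.2 and 5.56 rescaled FPKM in CLPs, and *Mir5130* had 7.18, 2.67 and 0 against 62.2, 40.7 and 48.1. Poly-A libraries do not capture mature miRNAs, so reads at these loci may belong to longer overlapping transcripts and the values are uncertain. Limiting the calls to a mean of at least 5 rescaled FPKM left 19 higher and 72 lower.

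The most abundant transcripts were largely shared, with 7 of the 10 highest genes in common. *Eef1a1*, the elongation factor that brings transfer RNAs to the ribosome, led both, at 8129, 9423 and 7346 rescaled FPKM in CDPs and 5471, 5643 and 5926 in CLPs (0.54, adjusted p = 0.143). Ribosomal protein genes, a group chosen after the values of these abundant genes were seen, had a median log2 fold change of 0.53 over 93 tested (0.60 without CDP library 3). Of them 73 lay above CLPs without overlap and 1, *Rpl37rt*, was called (1.16, adjusted p = 0.0144). The shift depended on the scaling, since with libraries scaled to the same total their median was 0.31 while that of all genes was -0.18.

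The remaining libraries of the series give values for the same genes. In MPPs the mean was nearer to CDPs than to CLPs for 25 of the 38 genes called higher and for 105 of the 118 called lower. The share over all tested genes was not computed, so these MPP counts do not set the called genes apart from other genes. In the libraries labelled KO, 3 of each population, 32 of the 38 genes were higher in every CD115- CDP library than in any CLP library, as were 19.3% of all tested genes, and 72 of the 118 were lower in every library, as were 21.7% of all tested genes. These libraries took no part in the calls but share the tables of the WT libraries. No test was made of these counts.

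The genes that set CDP library 3 apart are given here by their distance from libraries 1 and 2, so their values are a description. Lowest against both were *Rasgef1b*, at 107, 160 and 0.847 rescaled FPKM in libraries 1, 2 and 3, *Nr4a3*, a nuclear receptor induced by signalling, at 65.8, 94.1 and 0.234, and *Il10*, an anti-inflammatory cytokine, at 34.6, 32.9 and 0.263. *Rasgef1b* encodes an exchange factor for small GTPases. *Nr4a1*, of the same receptor family as *Nr4a3*, had 1948, 1691 and 67.9, with 532, 307 and 507 in CLPs. For *Nr4a1* the CLPs thus lay between the CDP libraries. Highest in library 3 were the heat shock genes *Hspa1a* and *Hspa1b*, at 369 and 370 rescaled FPKM against at most 18.7 in libraries 1 and 2. The CLP libraries were split for *Hspa1a* too, at 9.92, 432 and 779. *Lyz2*, the lysozyme of monocytes and granulocytes, had 48, 55.4 and 826, *Fn1*, fibronectin, 1.49, 0.852 and 55.5, and *Ccr2*, the chemokine receptor of monocytes, 4.84, 2.95 and 67.6. In CLPs these 3 genes reached at most 84.9, 1.1 and 2.17. *Vpreb2*, a further surrogate light chain gene, had 9.39, 18.2 and 0.253, and *Pax5* and *Igll1*, given above, were also lowest in library 3.

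**Figure D5:**
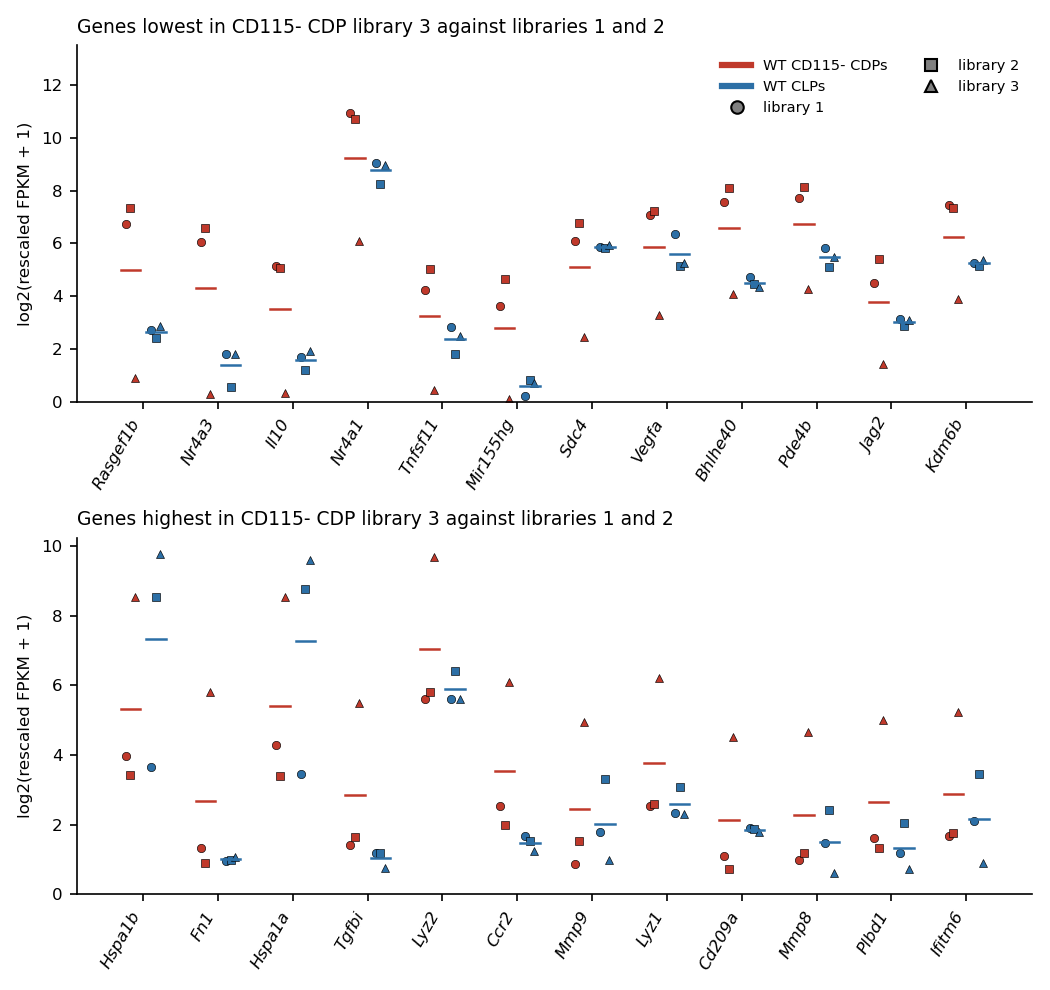
Log2(rescaled FPKM + 1) in each library for the 12 genes that were lowest (top) and the 12 that were highest (bottom) in CD115- CDP library 3 against libraries 1 and 2, with WT CLPs (blue) beside them. Symbols are libraries 1 to 3 and bars are means over 3 libraries; *Nr4a1* falls from 1948 and 1691 rescaled FPKM to 67.9 in library 3, and *Lyz2* is at 826 there.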

How the data were processed

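The authors deposited FPKM per gene and library, with 2 decimals, in a table for each population. The submitters' processing notes name HISAT2 2.0.4, Bowtie2 2.2.5 and RSEM 1.2.12 with mm10. The 3 WT libraries of CD115- CDPs and of CLPs were joined on the gene identifier and rescaled by median ratios. Genes with a mean of at least 0.5 were tested two-sided on log2(rescaled FPKM + 1) in limma 3.58.1 (R 4.3.3; moderated variances with an intensity trend), adjusting by Benjamini-Hochberg over 12421 genes. Read counts were not used here. A fixed total per library means that high genes affect all others. Gene positions and promoters are from RefSeq, with 99.9% of tested genes matched. Python 3.11.15 with numpy 2.4.6, pandas 2.3.3 and matplotlib 3.10.9 made the summaries and figures.

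Named genes are those of the sort gates, the 12 called genes with the largest fold change in each direction without overlap and with a mean of at least 5, members of 26 lists, and the 10 most abundant genes of each population. The compared groups, the lists and the tests were chosen with earlier results of these data known. A few listed genes are not reported here. Other genes named are said to be chosen after their values were seen. The alternatives were other scalings, pseudocounts, filters and thresholds, limma without a trend, array weights, fits over 9 or 12 libraries, a replicate block, and leaving out each library.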

Additional observations from a re-analysis of the deposited data

How the results depend on the processing

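The counts of 38 genes higher and 118 lower moved by over 1.5 times in several settings. They became 79 and 189 in a fit over 12 WT and KO libraries, 125 and 212 over 9 WT libraries with MPPs, 19 and 71 with a filter at a mean of 5, 14 and 47 with no filter, 0 and 0 at an adjusted p of at most 0.001, and 47 and 273 with libraries scaled to the same total. Leaving out each library in turn gave between 0 and 661 genes higher and between 0 and 355 lower, the highest without CD115- CDP library 3 and the lowest without CLP library 2, which left 1449 genes at an unadjusted p under 0.05. Without CLP library 3, 0 genes were called higher and 1 lower. With a replicate block, 0 genes were called higher and 0 lower by limma, and 2191 had an unadjusted p under 0.05. The correlation of deviations from the population means was 0.166, -0.191 and 0.0253 for same-numbered CDP and CLP libraries. For differently numbered ones it ranged from -0.222 to 0.241. With 3 libraries per population and CDP library 3 far from the others, these values cannot decide whether replicate numbers pair the libraries. The estimated depth was 19.3, 19.8 and 20.4 M mapped reads in CDP libraries 1 to 3, and 19.3, 19.9 and 20.4 M in CLP libraries 1 to 3. With the remaining settings (FPKM as deposited, array weights, no trend, a pseudocount of 0.1, quantile normalization) the counts stayed within 1.5 times. Of 1378 values for 82 genes whose fold change is given, 0 changed direction, 257 lost and 56 gained a call. Of these genes 50 were called, and their lack of overlap fixes the direction when a library is left out. Some genes named without a fold change did turn. Without CDP library 3, *S100a8* went from 0.21 to -0.94 and *Lyz2* from 1.16 to -0.17. The causes were not tested.

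The design allowed no separation of population and table. The spread of CDPs was larger (median SD per gene 0.25 on the log2 scale, against 0.161 in CLPs).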
